A study of Mus musculus with 15 samples.

Results

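The 10 genes described here encode adhesion and plaque proteins of the desmosome in mouse skin. They are the desmogleins Dsg1a, Dsg1b, Dsg2, Dsg3 and Dsg4, the desmocollins Dsc1, Dsc2 and Dsc3, and the plaque proteins plakoglobin (Jup) and desmoplakin (Dsp). They were chosen by gene symbol, with earlier results of these data known, and all 10 were found among the 24543 genes of the deposited expression table. Values are RPKM, reads per length of gene in kilobases, scaled by the authors to the mapped reads of each library.

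All 15 libraries came from whole skin of mice with the genotype K14CreERTM/LSL-SOX2 on a mixed background (129/SvEv/C57/B16 X CD-1). In this model a Cre recombinase under the keratin 14 promoter, which is active in basal keratinocytes and the outer hair follicle, becomes active with tamoxifen and is meant to release a silent SOX2 transgene. Skin received tamoxifen in ethanol or ethanol alone (vehicle) and was taken unwounded at day 0 or wounded at day 4, so wounding and day cannot be told apart. No group received tamoxifen without the transgene, and the labels do not give the age of the mice. Unwounded skin gave 3 libraries with tamoxifen (replicates 2, 3 and 4) and 4 with vehicle. Wounded skin gave 2 sets of 4 libraries. Set A denotes the wounded libraries recorded as tamoxifen, which the gene tables name vehicle, and set B those recorded as vehicle, which the gene tables name tamoxifen. The authors' sample sheet lists the recorded names as old and those of the gene tables as new, without a reason. For the 7 unwounded libraries all names are the same. A treatment difference in wounded skin therefore turns around with the naming, and values are given by set. Depth was 39277860 to 75102345 alignments per library. Keratinocytes were present in every library, with the basal keratins Krt5 at 1341 RPKM or more and Krt14 at 993 RPKM or more.

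Desmosomes are the junctions that hold keratinocytes together and anchor their keratin filaments. Outside the cell, desmogleins and desmocollins bind across the gap between neighbours. Inside, their tails hold plakoglobin and the plakophilins, which in turn hold desmoplakin, the link to keratin. The cadherins differ by layer in mouse and human epidermis: desmoglein 1 and desmocollin 1 are strongest in the upper layers, desmoglein 3 and desmocollin 3 in the lower ones, desmoglein 2 and desmocollin 2 occur in many epithelia, and desmoglein 4 is known for the hair shaft. In the mouse the human gene for desmoglein 1 corresponds to Dsg1a, Dsg1b and Dsg1c. These are close paralogs, and since the authors' handling of shared reads is not given, the division of reads between Dsg1a and Dsg1b is uncertain.

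Promoter windows are shown for Jup and Dsp alone, since the promoter sequences used did not hold the other 8 genes. Each window runs from 250 bases before to 50 bases after the RefSeq start (GRCm38.p6), 5′ to 3′ on the gene's strand, at chr11:100397741-100398040 (minus strand) for Jup and chr13:38151044-38151343 (plus strand) for Dsp. Capitals mark the GC box GGGCGG on either strand, a motif marked after the windows were seen.
Jup: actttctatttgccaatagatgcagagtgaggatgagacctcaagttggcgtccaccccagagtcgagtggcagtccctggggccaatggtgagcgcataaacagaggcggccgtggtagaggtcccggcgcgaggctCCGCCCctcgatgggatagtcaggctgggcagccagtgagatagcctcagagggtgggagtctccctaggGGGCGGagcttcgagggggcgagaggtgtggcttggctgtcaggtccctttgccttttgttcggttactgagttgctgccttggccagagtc
Dsp: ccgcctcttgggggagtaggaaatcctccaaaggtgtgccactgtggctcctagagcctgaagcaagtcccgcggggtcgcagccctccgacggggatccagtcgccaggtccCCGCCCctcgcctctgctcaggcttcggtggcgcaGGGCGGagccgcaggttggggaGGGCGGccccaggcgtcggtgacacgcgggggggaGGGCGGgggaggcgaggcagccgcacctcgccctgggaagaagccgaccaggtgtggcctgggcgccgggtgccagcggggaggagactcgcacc
The Jup window held 2 GC boxes and a GC content of 60.7%, and the Dsp window 4 GC boxes and 73.0%. Of all 32851 promoter windows of this length, 35.7% held at least 1 GC box, and the median GC content was 52.7%. On both strands neither window held AACNGGTT (grainyhead, in 2.09% of all windows), TGANTCA (AP-1, 7.81%) or CATTGTN (SOX, 12.5%). These are matches of letters and not measured sites.

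The 8 cadherin genes lie together with Dsg1c on chromosome 18 (GRCm38, which is mm10, 19960930 to 20604521, 644 kb, GENCODE M21). The 9 cadherin genes are all of the 9 protein-coding genes in that span. Dsc3, Dsc2 and Dsc1 come first, on the minus strand, and are followed on the plus strand by Dsg1c, Dsg1a, Dsg1b, Dsg4, Dsg3 and Dsg2. Both plaque genes lie elsewhere, Jup on the minus strand of chromosome 11 (100368958 to 100397763) and Dsp on the plus strand of chromosome 13 (38151294 to 38198577).

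Per length of gene, the plaque genes were the most abundant of the 10 in every group. Jup was at 146 to 320.0 RPKM and Dsp at 123 to 264 RPKM over the 15 libraries. By group mean RPKM, Jup ranked between 220 and 351 and Dsp between 286 and 407 of the 24543 genes. Dsc3 and Dsg1a were next at 49.9 to 103 and 36.9 to 77.0 RPKM, except in set A, where the mean of Dsc1 (45.2 ± 12.3) was within the spread of that of Dsg1a (44.9 ± 8.33). In unwounded vehicle skin they were followed, in descending order of mean RPKM, by Dsc1, Dsg1b, Dsg3, Dsc2, Dsg2 and Dsg4. Of these Dsg1b, Dsg3 and Dsc2 were close (11.1 ± 2.1, 9.07 ± 0.788 and 7.96 ± 1.15, SD, n = 4) but kept this order within each of the 4 libraries. In set B the order was Dsc1, Dsg3, Dsc2, Dsg1b, Dsg2 and Dsg4, with Dsg3 and Dsc2 (31.8 ± 5.68 and 31.2 ± 4.07) and Dsg2 and Dsg4 (5.63 ± 0.859 and 4.83 ± 1.64) within their spread. Dsg4 was the exception to steady expression, at 0.0263 to 15.2 RPKM, and the other 9 exceeded 1 RPKM in every library. All 10 passed the filter on low values (at least 3 libraries with an RPKM of 1 or more), Dsg4 through unwounded tamoxifen skin and set B.

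**Figure D1:**
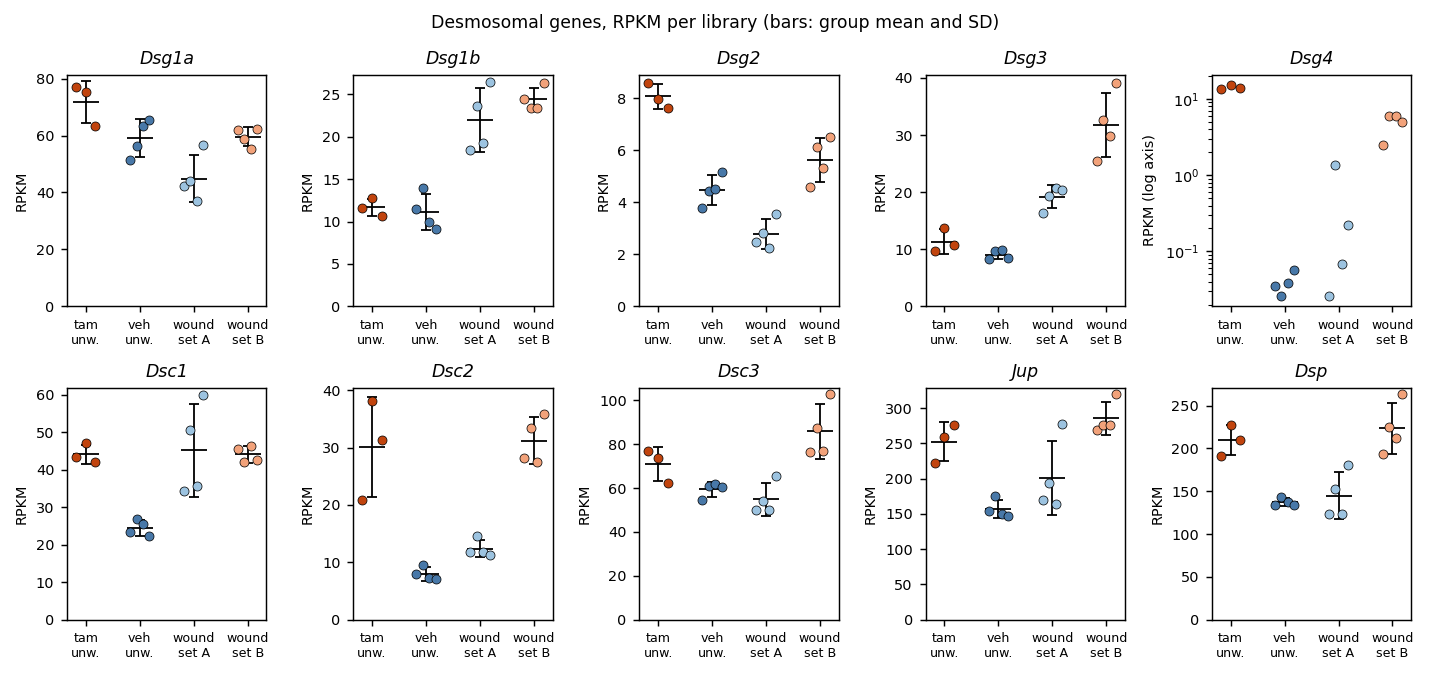
RPKM of each of the 10 genes in each library by group (tam unw., unwounded tamoxifen; veh unw., unwounded vehicle; wound set A and set B). Points are libraries and bars are group means with SD, drawn on a linear axis from 0 except for Dsg4, which has a log axis and points only. Dsg4 spans 0.0263 to 15.2 RPKM, Dsg1b and Dsg3 are higher in all 8 wounded than in all 7 unwounded libraries, and Dsc2 is highest in unwounded tamoxifen skin and set B.

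Unwounded skin was compared first, since its treatment names do not conflict. Of the 10 genes, 6 were higher with tamoxifen and none lower (limma adjusted p under 0.05), while of all 13922 genes tested 69.4% were called, 34.7% as higher and 34.7% as lower. The median difference of the 10 on the log2(RPKM + 0.5) scale was 0.64, beside 0.000869 over all genes. A limma model of only these groups called 8 of the 10 as higher, beside 9615 of all genes called. It added Dsg1a (adjusted p = 0.0467) and Dsc3 (0.0316). With library weights 9 were higher, beside 10643 of all genes called, and Dsg3 was added as well (adjusted p = 0.00300). The hair-shaft desmoglein Dsg4 and the desmocollin Dsc2 differed by the most, and Dsg1b by the least. In whole skin, fewer cells of a type and less RNA per cell cannot be told apart, here and in all later comparisons.

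Among the desmogleins, Dsg4 was at 13.3, 15.2 and 13.98 RPKM with tamoxifen and at 0.0351, 0.0263, 0.0385 and 0.0576 RPKM with vehicle. The latter correspond to about 5.86 to 11.6 reads per library, by the GENCODE exon length, against a floor of 3 reads. Dsg4 rose by 4.76 ± 0.36 (limma SE, adjusted p = 1.29e-07), a scale on which the added 0.5 shrinks the change of so low a gene. Dsg2, the desmoglein of many epithelia, was at 8.59, 7.98 and 7.64 RPKM with tamoxifen and at 3.77, 4.45, 4.50 and 5.18 RPKM with vehicle. The groups did not overlap, and Dsg2 rose by 0.79 ± 0.14 (adjusted p = 0.000187).

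In the main model the other desmogleins did not pass the test. Dsg1a, the most abundant desmoglein, was at 77.0, 75.2 and 63.3 RPKM with tamoxifen and at 51.3, 56.4, 63.4 and 65.6 RPKM with vehicle, so that the groups overlapped (0.28 ± 0.13, adjusted p = 0.0634). Dsg3, the desmoglein of the lower layers, was at 9.65, 13.7 and 10.7 against 8.30, 9.62, 9.87 and 8.50 RPKM, with 1 tamoxifen library inside the vehicle range (0.30 ± 0.14, adjusted p = 0.0745). Dsg1b was at 11.6, 12.8 and 10.7 against 11.5, 13.9, 10.004 and 9.13 RPKM (0.08 ± 0.14, 95% interval -0.22 to 0.38, adjusted p = 0.628). For both Dsg1a and Dsg3 the side of the threshold depended on single libraries and on the model. Leaving out a wounded library, which is not part of this comparison, kept these differences and moved only the p-values. Dsg1a passed without tamoxifen replicate 4 (adjusted p = 0.0348), vehicle replicate 4 (0.0453) or set A replicate 3 or 4 (0.0426 and 0.0207), and Dsg3 passed without tamoxifen replicate 2 (0.0335) or set B replicate 4 (0.0487).

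Of the desmocollins, Dsc2 was at 20.9, 38.1 and 31.3 RPKM with tamoxifen and at 7.95, 9.58, 7.26 and 7.03 RPKM with vehicle. Every tamoxifen library was above every vehicle library, although tamoxifen replicate 2 lay well under the other two, and Dsc2 rose by 1.82 ± 0.17 (adjusted p = 8.06e-07). Dsc1, the desmocollin of the upper layers, was at 43.4, 47.0 and 42.0 against 23.3, 26.8, 25.4 and 22.3 RPKM, without overlap. It rose by 0.84 ± 0.15 (adjusted p = 0.000265). Dsc3, the desmocollin of the lower layers, was at 77.0, 73.9 and 62.2 against 54.5, 60.8, 61.7 and 60.7 RPKM. Its groups did not overlap, by a margin of less than 1 RPKM. The difference of 0.25 ± 0.12 did not pass in the main model (adjusted p = 0.0737). It passed without tamoxifen replicate 4 (0.0329). With the difference unchanged, it also passed without set A replicate 4 (0.0421) or set B replicate 4 (0.0457). In all, 7 of the 10 genes had groups without overlap, beside 69.6% of all genes tested.

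Both plaque genes rose. Jup was at 222, 258 and 277 RPKM with tamoxifen and at 155, 175, 150 and 146 RPKM with vehicle, a difference of 0.69 ± 0.15 (adjusted p = 0.00111). Dsp was at 192, 227 and 209.8 against 135, 144, 138 and 134 RPKM, a difference of 0.60 ± 0.13 (adjusted p = 0.000925). Neither gene had overlapping groups, and the ratio of Jup to Dsp RPKM was 1.14 to 1.32 with tamoxifen and 1.09 to 1.22 with vehicle.

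**Figure D2:**
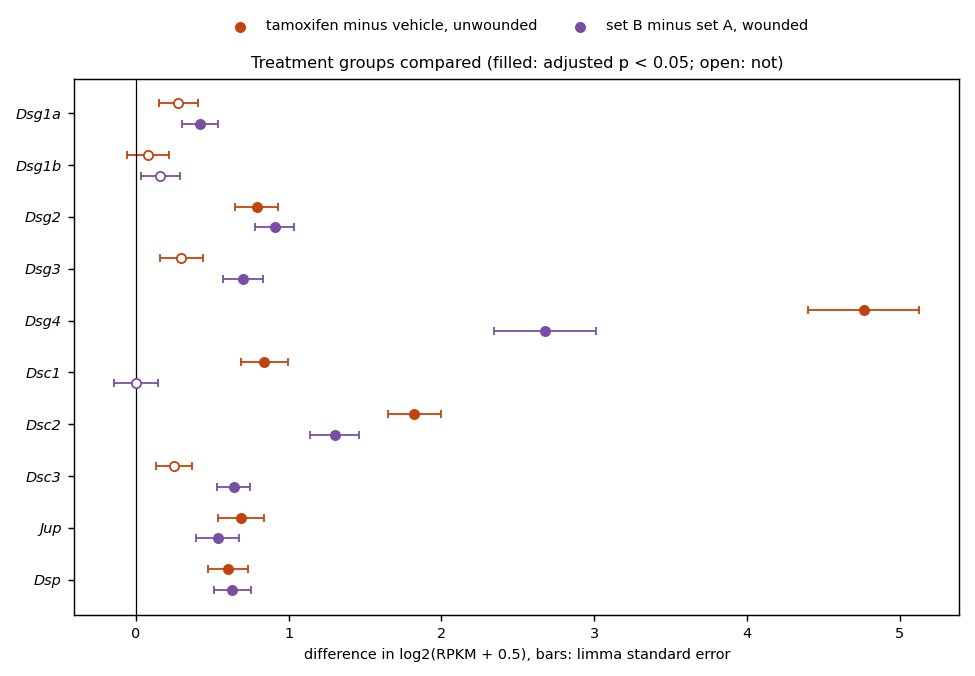
Difference in log2(RPKM + 0.5) of each of the 10 genes for tamoxifen minus vehicle in unwounded skin (orange) and for set B minus set A in wounded skin (purple). Bars are limma standard errors, and filled points passed an adjusted p of 0.05. Dsg4 (4.76 and 2.68) and Dsc2 (1.82 and 1.30) lie farthest to the right in both, and Dsc1 is at 0.84 in unwounded skin and at 0.00 between the wounded sets.

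The other desmosome genes of unwounded skin were described from a list of 10 (plakophilins, plakins and associated proteins), of which 9 were tested. With tamoxifen 8 were higher and none lower, with a median difference of 0.94. Of the plakophilins, armadillo proteins of the plaque, Pkp3 and Pkp2 differed by more than the other 7 genes and Pkp1 and Pkp4 by less. Pkp3 had a mean of 213 ± 38.4 RPKM (n = 3) against 69.0 ± 8.50 (n = 4), a difference of 1.61 (adjusted p = 4.44e-06), and Pkp2 3.71 ± 0.420 against 0.972 ± 0.241 (1.53, adjusted p = 5.93e-07). Pkp1, the main plakophilin of the upper epidermis, differed by 0.41 (adjusted p = 0.0157), and Pkp4 by 0.10 (adjusted p = 0.336). The plakins envoplakin (Evpl, 1.32) and periplakin (Ppl, 0.56), corneodesmosin (Cdsn, 0.96), which is added to desmosomes in the upper layers, kazrin (Kazn, 0.94) and the desmosomal membrane protein Perp (0.70) were also higher. Dsg1c, the third Dsg1 paralog, was at 0.160 to 0.579 RPKM over all libraries and did not pass the filter.

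Adherens junction genes were higher as well, 7 of 8 with none lower, led by P-cadherin (Cdh3, 1.70), Nectin4 (1.54) and Nectin1 (1.13). Keratinocyte markers gave other directions. Of 6 basal genes none was higher and 3 were lower (Col17a1 -0.37, Itga6 -0.35, Itgb4 -0.31), and of 6 suprabasal genes tested 1 was higher (Ivl, involucrin, 1.28) and 5 were lower, led by the suprabasal keratins Krt1 (-2.37) and Krt10 (-1.62) and by Krt77 (-1.34). Krt2, the other suprabasal gene of the list, did not pass the filter. The desmosome genes of unwounded tamoxifen skin thus did not share the direction of the suprabasal keratins.

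Factors known to act on desmosome or hair-shaft genes were also listed. With tamoxifen Trp63 (p63, a regulator of many epidermal adhesion genes) was at 33.1 ± 3.55 RPKM against 29.1 ± 3.30 (0.19, adjusted p = 0.224), and the other 5 of 6 were higher. Grhl1, a grainyhead factor known to act on Dsg1 genes in mouse, was at 98.0 ± 5.00 against 44.5 ± 2.21 RPKM (1.13). Hoxc13 (4.45), Foxn1 (4.11), Lef1 (3.31) and Msx2 (5.14), all known from hair follicle differentiation, were higher by more. Sox2 itself was at 1.98 to 2.89 RPKM with tamoxifen and 1.85 to 2.57 RPKM with vehicle (0.07 ± 0.18, adjusted p = 0.737), so no rise of Sox2 RPKM with tamoxifen was detected.

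Markers of cell types moved with the treatment, and the part of cell makeup in the differences was not tested. All 10 hair-shaft keratins were higher with tamoxifen (median 9.42), with a summed level of 4115 to 7768 RPKM per library against 3.02 to 6.49 with vehicle. All 5 melanocyte markers were higher as well. All 5 markers each of macrophages (summed 60.5 to 89.0 against 431 to 730.3 RPKM), endothelial cells (27.9 to 32.0 against 57.8 to 62.9), fibroblasts (1259 to 3023 against 3610.2 to 7105), skeletal muscle (1755 to 3569 against 5683 to 8836) and sebaceous glands (271 to 351 against 549 to 837) were lower. Of 5 adipocyte markers 1 was higher and 2 were lower, and of 5 neutrophil markers 2 were lower, with Ly6g at 0 in every tamoxifen library. The mean log2 level of 6 general epithelial genes (Cdh1, Esrp1, Esrp2, Grhl2, Trp63 and Krt5) was 6.13 to 6.22 per library with tamoxifen and 5.54 to 5.74 with vehicle. Of these 6 genes 4 were called higher with tamoxifen and none lower (median 0.56).

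The comparison was therefore repeated with each library scaled to those 6 epithelial genes, which moved the median of all genes from 0.000869 to -0.50 and the share of higher among all calls from 50.04% to 13.98%. On this scale Dsg4 (4.42), Dsc2 (1.29), Dsc1 (0.30, adjusted p = 0.0334) and Dsg2 (0.28, adjusted p = 0.0397) were still higher. Jup (0.14, adjusted p = 0.251) and Dsp (0.05, adjusted p = 0.643) no longer passed. Cdh1, which is among the 6 genes, had the profile nearest to Dsp of all genes tested (0.08, described below). A smaller Dsp difference was thus partly built into this scale. Dsg1b (-0.45, adjusted p = 0.00403) and Dsc3 (-0.30, adjusted p = 0.0263) were lower, and Dsg1a (-0.27, adjusted p = 0.0609) and Dsg3 (-0.23, adjusted p = 0.184) turned in sign without passing. Relative to the shifted median of all genes, -0.50, each of the 10 lay higher.

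**Figure D3:**
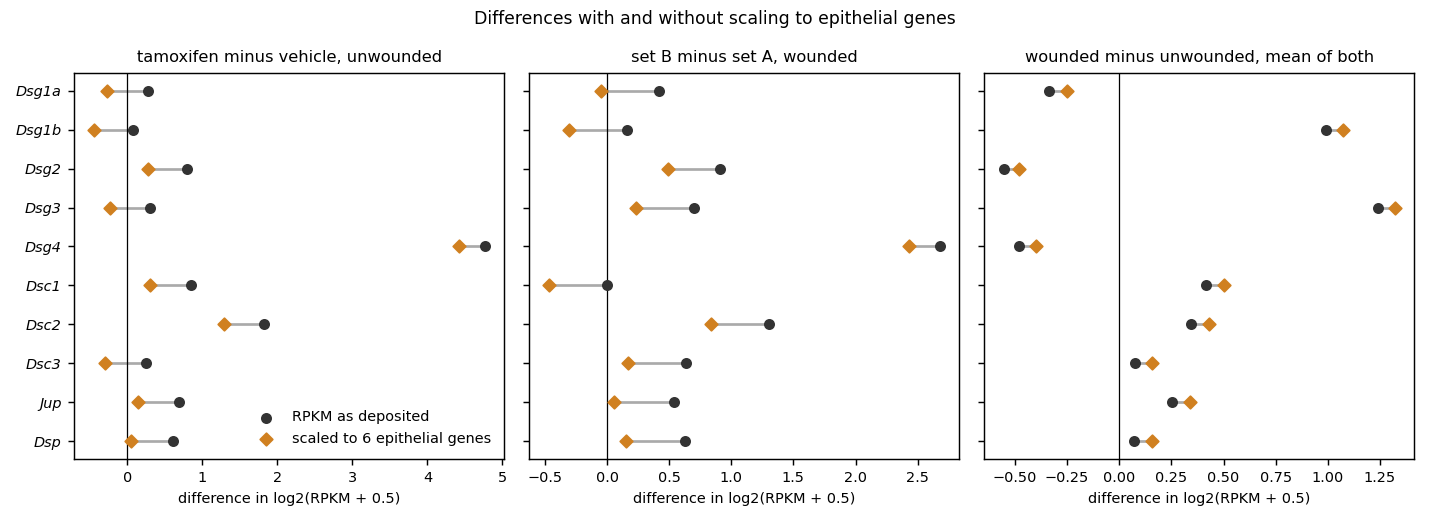
Difference in log2(RPKM + 0.5) of each of the 10 genes as deposited (dark circles) and after scaling each library to 6 epithelial genes (orange diamonds), for 3 comparisons with separate axes. In unwounded skin Dsp moves from 0.60 to 0.05 and Dsc2 from 1.82 to 1.29, and between the wounded sets Dsc1 moves from 0.00 to -0.47. For wounded minus unwounded skin the values move little, with Dsg3 at 1.24 and 1.32.

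Between the wounded sets, 8 of the 10 genes were higher in set B than in set A and none was lower, while of all genes 31.1% were called, 15.5% as higher and 15.6% as lower. By the gene tables' names this is tamoxifen minus vehicle and by the sample records it is vehicle minus tamoxifen. The median difference of the 10 was 0.64, beside 0.00230 over all genes. Dsg4 and Dsc2 again differed most, and the genes that did not pass were Dsc1 and Dsg1b.

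Dsg4 was at 2.45, 5.93, 5.94 and 4.99 RPKM in set B and at 0.0262, 1.36, 0.0681 and 0.219 RPKM in set A. The sets did not overlap, but within set A replicate 2 stood far above the others. The difference was 2.68 ± 0.34 (adjusted p = 0.000103). The summed hair-shaft keratins of set A were 2.69, 348, 7.70 and 3.64 RPKM in the same order of replicates and those of set B 618 to 1311 RPKM, so the set A library with the most Dsg4 also had the most hair keratin.

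Dsg2 was at 4.58, 6.12, 5.30 and 6.50 RPKM in set B and at 2.48, 2.81, 2.23 and 3.57 RPKM in set A (0.91 ± 0.13, adjusted p = 0.000222). Dsg3 was at 25.5, 32.6, 29.9 and 39.0 against 16.4, 19.4, 20.7 and 20.3 RPKM (0.70 ± 0.13, adjusted p = 0.00136). Neither gene overlapped between the sets. Dsg1a was at 61.9, 59.0, 55.2 and 62.4 against 42.1, 44.0, 36.9 and 56.5 RPKM and rose by 0.42 ± 0.12 (adjusted p = 0.0146) although set A replicate 4 lay above the lowest library of set B. Dsg1b was at 24.4, 23.4, 23.5 and 26.4 against 18.5, 23.7, 19.3 and 26.5 RPKM, with full overlap (0.16 ± 0.13, 95% interval -0.11 to 0.44, adjusted p = 0.367).

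Dsc2 was at 28.1, 33.4, 27.5 and 35.8 RPKM in set B and at 11.7, 14.5, 11.8 and 11.2 RPKM in set A, far apart (1.30 ± 0.16, adjusted p = 9.04e-05). Dsc3 was at 76.6, 87.2, 76.7 and 103 against 49.99, 53.9, 49.9 and 65.7 RPKM (0.64 ± 0.11, adjusted p = 0.000776), again without overlap. Dsc1 was at 45.6, 41.9, 46.2 and 42.6 against 34.5, 50.7, 35.6 and 60.0 RPKM. Set A spread to both sides of set B, and the difference was 0.00 ± 0.14 (95% interval -0.30 to 0.31, adjusted p = 0.991).

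Of the plaque genes, Dsp was at 193, 225, 212 and 264 RPKM in set B and at 123, 153, 124 and 180.5 RPKM in set A, without overlap (0.63 ± 0.12, adjusted p = 0.00149). Jup was at 269, 276, 276 and 320.0 against 169, 193, 164 and 277 RPKM. Jup rose by 0.54 ± 0.14 (adjusted p = 0.0104), with set A replicate 4 inside the range of set B. In all, 6 of the 10 genes had sets without overlap, beside 28.3% of all genes.

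The same lists were read between the sets. Of the 9 other desmosome genes tested 8 were higher in set B and none lower (median 0.49), Cdsn (0.88), Pkp3 (0.70), Kazn (0.58), Perp (0.56), Evpl (0.49), Pkp1 (0.47), Pkp2 (0.45) and Ppl (0.38), and Pkp4 differed by -0.05 (adjusted p = 0.711). All 8 adherens junction genes were higher, led by Nectin4 (0.84), Cdh3 (0.70) and E-cadherin (Cdh1, 0.61). Of 6 basal genes 3 were higher (Col17a1 0.63, Itgb4 0.51, Itga6 0.39), and of 6 suprabasal genes 1 was higher (Flg2, 0.9996) and 2 were lower (Krt1 -1.17, Krt10 -0.86). All 6 listed factors were higher, Hoxc13 by 2.99, Msx2 by 2.74, Foxn1 by 1.66, Lef1 by 1.37, Grhl1 by 0.64 and Trp63 by 0.38.

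Markers of other cells again moved with the sets, and their part was not tested. All 10 hair-shaft keratins were higher in set B (median 5.36). Lower in set B were 3 of 5 macrophage markers (summed 320.4 to 410.3 against 516 to 785 RPKM in set A), 4 of 5 endothelial markers (63.5 to 75.1 against 84.5 to 111), 3 of 5 fibroblast markers (2120.0 to 2981 against 3036 to 5408), 1 of 5 neutrophil markers (85.8 to 224 against 83.9 to 193) and all 5 sebaceous markers (225 to 298 against 353 to 699). No marker of skeletal muscle, adipocytes or melanocytes was called between the sets. Of the 6 epithelial genes 5 were called higher in set B and none lower (median 0.43). Their mean log2 level was 5.37, 5.60, 5.30 and 6.002 in set A and 5.92 to 6.21 in set B. Set A replicate 4, the highest of its set in that level, was above its set's mean in 8 of the 10 desmosome genes, while replicate 1 was above it in 0 and replicate 3 in 1.

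Scaled to the epithelial genes, the median of all genes between the sets moved to -0.44 and the share of higher calls from 49.9% to 6.02%. Dsg4 (2.43), Dsc2 (0.84) and Dsg2 (0.49) stayed higher in set B. Dsg3 (0.23, adjusted p = 0.140), Dsc3 (0.17, adjusted p = 0.149), Dsp (0.16, adjusted p = 0.128) and Jup (0.06, adjusted p = 0.571) did not pass. Dsc1 (-0.47, adjusted p = 0.00288) and Dsg1b (-0.30, adjusted p = 0.0263) were lower, and Dsg1a was at -0.05. Dsg4, Dsc2 and Dsg2 are thus the genes of the 10 that passed as higher in both treatment comparisons on both scales.

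Wounding was compared first as the mean of sets A and B minus the mean of the 2 unwounded groups, which does not depend on the names. Of the 10 genes 5 rose with wounding and 2 fell, beside 56.4% of all genes called, 26.9% as higher and 29.5% as lower. The median of the 10 was 0.16, beside -0.02 over all genes. Within the desmogleins the directions split. Dsg3 rose by 1.24 ± 0.10 (adjusted p = 2.39e-07) and Dsg1b by 0.99 ± 0.09 (adjusted p = 1.42e-06). Dsg2 fell by 0.55 ± 0.09 (adjusted p = 0.00024) and Dsg1a by 0.33 ± 0.09 (adjusted p = 0.00461). Since the division of reads between Dsg1a and Dsg1b is uncertain, so are their opposite directions, and their sum was not tested.

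Dsg3, the antigen of the blistering disease pemphigus vulgaris, was at 8.30 to 13.7 RPKM in the 7 unwounded and at 16.4 to 39.0 RPKM in the 8 wounded libraries. Dsg1b was at 9.13 to 13.9 RPKM unwounded and at 18.5 to 26.5 RPKM wounded. For both genes every wounded library was above every unwounded one. Dsg1a, by contrast, was at 51.3 to 77.0 RPKM unwounded and at 36.9 to 62.4 RPKM wounded, and Dsg2 at 3.77 to 8.59 and 2.23 to 6.50 RPKM, both with overlap across the pooled libraries. Dsg4 did not pass (-0.48 ± 0.25, adjusted p = 0.113), but did without set A replicate 2 (-0.69, adjusted p = 0.00234).

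Among the desmocollins Dsc1 rose by 0.42 ± 0.10 (adjusted p = 0.00402) and Dsc2 by 0.34 ± 0.12 (adjusted p = 0.0234), the latter lost without unwounded tamoxifen replicate 2 (0.22, adjusted p = 0.0593). Dsc3 differed by 0.07 ± 0.08 (95% interval -0.10 to 0.25). Of the plaque genes Jup rose by 0.25 ± 0.10 (adjusted p = 0.0482), a call that was lost in 10 of the 15 fits that each left out 1 library (adjusted p 0.0552 to 0.121). Dsp differed by 0.07 ± 0.09 (95% interval -0.12 to 0.26). Scaling to the epithelial genes moved the median of all genes to 0.06 and kept all 7 calls, with Dsg3 at 1.32, Dsg1b at 1.07, Dsc1 at 0.50, Dsc2 at 0.43, Jup at 0.34, Dsg1a at -0.25 and Dsg2 at -0.48.

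**Figure D4:**
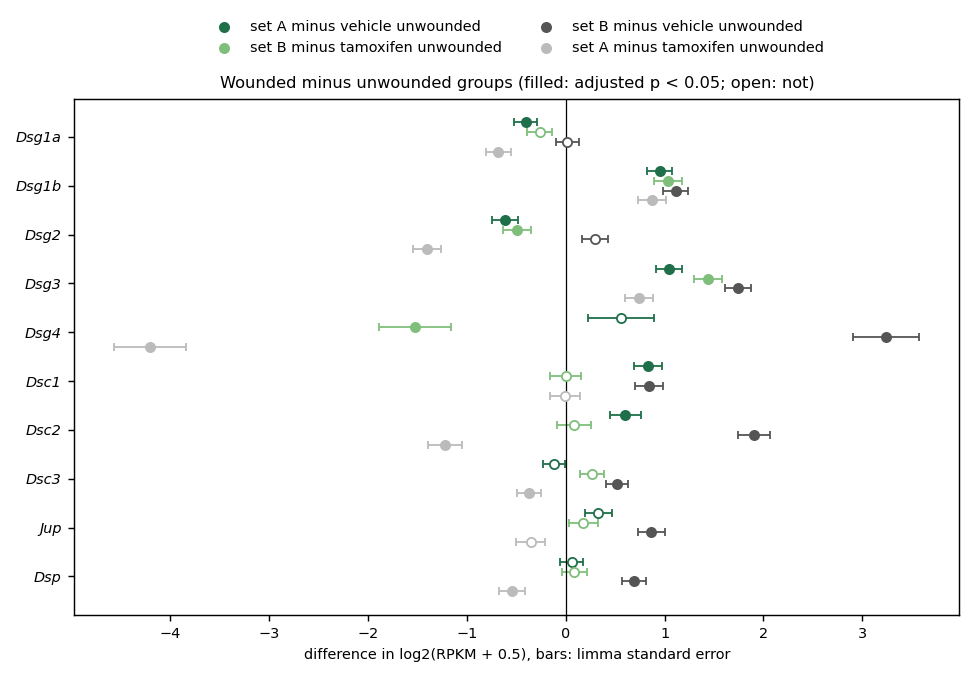
Differences in log2(RPKM + 0.5) of each of the 10 genes for each wounded set minus each unwounded group. Green points pair the groups by the gene tables' names and grey points by the sample records, bars are limma standard errors, and filled points passed an adjusted p of 0.05. Dsg1b (0.87 to 1.11) and Dsg3 (0.74 to 1.74) are to the right in all 4, and the other genes change side or lose the call with the pairing of groups.

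Taken by the gene tables' names, wounded vehicle skin (set A) against unwounded vehicle skin gave 4 of the 10 genes as higher and 2 as lower, beside 20.4% and 19.4% of all genes (39.8% in either direction). Dsg3 (1.04 ± 0.13, adjusted p = 4.63e-05), Dsg1b (0.95 ± 0.13, adjusted p = 8.25e-05), Dsc1 (0.84 ± 0.14, adjusted p = 0.000475) and Dsc2 (0.60 ± 0.16, adjusted p = 0.00883) rose. Dsg2 (-0.61 ± 0.13, adjusted p = 0.00202) and Dsg1a (-0.41 ± 0.12, adjusted p = 0.0138) fell. Jup (0.33, adjusted p = 0.0762) passed without set A replicate 1 (0.0497) or 3 (0.0360), and Dsg4 (0.56), Dsp (0.06) and Dsc3 (-0.12) did not pass. The groups did not overlap for 5 of the 10 genes, beside 35.8% of all genes.

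Wounded tamoxifen skin by the same names (set B) against unwounded tamoxifen skin gave 2 genes as higher and 2 as lower, beside 25.9% and 28.9% of all genes (54.8% in either direction). Dsg3 (1.44 ± 0.14, adjusted p = 2.21e-06) and Dsg1b (1.03 ± 0.14, adjusted p = 3.37e-05) rose, and Dsg4 (-1.52 ± 0.36, adjusted p = 0.00297) and Dsg2 (-0.49 ± 0.14, adjusted p = 0.00839) fell. Dsc3 (0.27, adjusted p = 0.0711) and Dsg1a (-0.26, adjusted p = 0.0921) passed without set A replicate 4 (0.0396 and 0.0336). That library is not part of this comparison, and both differences stayed the same without it. Dsc2 (0.08), Jup (0.18), Dsp (0.09) and Dsc1 (0.00) were within 0.2 of no difference. The groups did not overlap for 5 genes, beside 58.0% of all genes. Scaling to the epithelial genes raised the share of higher among all calls from 47.3% to 64.9%, and in the mean over both from 47.7% to 60.7%. For set B against unwounded tamoxifen it gave 4 of the 10 genes higher and 2 lower, beside 4467 of all 13922 genes called.

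By the sample records the pairs are set B against unwounded vehicle and set A against unwounded tamoxifen. The former gave 8 genes as higher and none as lower, beside 30.7% and 28.6% of all genes (59.2% either way), led by Dsg4 (3.24 ± 0.34), Dsc2 (1.91 ± 0.16), Dsg3 (1.74 ± 0.13) and Dsg1b (1.11 ± 0.13), and 8 genes did not overlap, beside 61.1%. Dsg1a (0.02) did not pass, and Dsg2 (0.30, adjusted p = 0.0608) passed in 4 of the fits without 1 library (without set A replicate 3 or 4, unwounded vehicle replicate 4 or set B replicate 1, adjusted p 0.0222 to 0.0489). Leaving out a set A library, which is not part of this pair, kept the Dsg2 difference at 0.30. The latter gave 2 genes as higher and 6 as lower, beside 31.3% and 34.1% (65.4% either way), with 7 genes not overlapping, beside 59.1%. Dsg1b (0.87 ± 0.14) and Dsg3 (0.74 ± 0.14) rose, and Dsg4 (-4.20 ± 0.36), Dsg2 (-1.40 ± 0.14), Dsc2 (-1.22 ± 0.17), Dsg1a (-0.68 ± 0.13), Dsp (-0.54 ± 0.13) and Dsc3 (-0.37 ± 0.12) fell. Dsc3 lost its call without unwounded tamoxifen replicate 2 (adjusted p = 0.0593), and Jup (-0.36, adjusted p = 0.0509) passed without that library (0.0355) or set A replicate 4 (0.000505). Epithelial scaling moved the share of higher calls from 51.8% to 15.1% in the former and from 47.8% to 88.0% in the latter, and the median of all genes to -0.38 and 0.51. On this scale the former had 7 genes higher and 1 lower, beside 8677 of all 13922 genes called. Dsg1a was called lower (-0.41, adjusted p = 0.00581) and Dsc3 was not called (0.09, adjusted p = 0.441). The latter pair had 4 higher and 3 lower, beside 9937 of all genes called. There Dsc1 (0.59, adjusted p = 0.000422) and Jup (0.24, adjusted p = 0.0487) were called higher, Dsc3 (0.22, adjusted p = 0.0842) and Dsp (0.05, adjusted p = 0.636) turned in sign without passing, and Dsg1a (-0.09, adjusted p = 0.503) did not pass. Dsg1b and Dsg3 rose in all 4 pairs, which share their groups.

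The other desmosome genes changed with wounding in directions that depended on the pair of groups. In the mean over both, 1 of 9 rose (Pkp1, 0.31) and 4 fell, Kazn (-0.53), Pkp2 (-0.48), Ppl (-0.39) and Cdsn (-0.38). Set A against unwounded vehicle gave 0 higher and 1 lower (Kazn, -0.34), and set B against unwounded tamoxifen 1 higher (Pkp1, 0.34) and 5 lower (Pkp2 -1.02, Kazn -0.71, Pkp3 -0.57, Evpl -0.54, Ppl -0.48). By the records' names, set B against unwounded vehicle gave 6 of 9 higher and none lower (median 0.55), and set A against unwounded tamoxifen none higher and 7 lower (median -1.04). Of 8 adherens junction genes 2 rose in the mean over both (Vcl 0.44, Cdh3 0.25) and 1 fell (Nectin4, -0.40). Of 6 basal genes 4 rose, led by Krt14 (1.75) and Itga6 (0.91), and Krt15 fell by 1.57. Of 6 suprabasal genes 1 rose (Krt1, 1.56) and 5 fell, led by Krt77 (-1.77) and Flg2 (-1.65). Of the listed factors 5 of 6 fell, Lef1 by 1.55, Msx2 by 1.27, Hoxc13 by 1.19, Foxn1 by 0.51 and Grhl1 by 0.48, and Trp63 differed by -0.07.

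Markers of other cells moved with wounding too. In the mean over both all 5 macrophage and all 5 neutrophil markers were higher, as were 4 of 5 endothelial markers and 1 of 5 fibroblast markers, all 5 skeletal muscle, adipocyte and melanocyte markers and 3 of 5 sebaceous markers were lower, and 1 of 10 hair-shaft keratins was lower. The neutrophil markers summed to 4.41 to 20.8 RPKM in unwounded and 83.9 to 224 RPKM in wounded libraries. Their part in the differences of the desmosome genes was not tested.

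The makeup of the cadherins differed between groups, described without a test as shares of the summed RPKM of each family. Dsg1a made up 70.4% ± 3.36 of desmoglein RPKM in unwounded vehicle skin (SD, n = 4) and 61.3% ± 2.46 in unwounded tamoxifen skin (n = 3), but 50.1% ± 3.23 in set A and 47.3% ± 3.23 in set B. Dsg3 made up 10.8% and 9.69% in the unwounded groups and 21.8% and 25.0% in sets A and B. Dsg4 took 12.1% of the total in unwounded tamoxifen skin and 3.82% in set B, beside 0.0468% in unwounded vehicle skin and 0.454% in set A.

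Since reads of Dsg1a and Dsg1b may be exchanged, their sum was also taken. Together they made up 83.8% of desmoglein RPKM with vehicle and 71.3% with tamoxifen in unwounded skin, and 74.7% and 66.7% in sets A and B, so the sum varied less by wounding than Dsg1a alone. The ratio of Dsg1a to Dsg1b was 4.05 to 7.18 in the unwounded libraries and 1.86 to 2.53 in the wounded ones. That ratio was looked at after the values were seen and was not tested. The total desmoglein RPKM of unwounded skin was 117 ± 9.67 with tamoxifen and 83.9 ± 6.26 with vehicle, and that of sets A and B 89.3 ± 13.1 and 126 ± 9.45.

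Of desmocollin RPKM, Dsc3 made up 64.7% in unwounded vehicle skin and 49.0% to 53.1% in the other groups. Dsc2 made up 20.6% in unwounded tamoxifen skin and 19.3% in set B, but 8.66% in unwounded vehicle skin and 11.2% in set A. Dsc1 had its highest share in set A, 39.7%, against 26.6% to 30.4% elsewhere. The groups with the higher Dsc2 share were the ones with the higher desmocollin total, 145 and 161 RPKM against 91.9 and 112 RPKM.

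**Figure D5:**
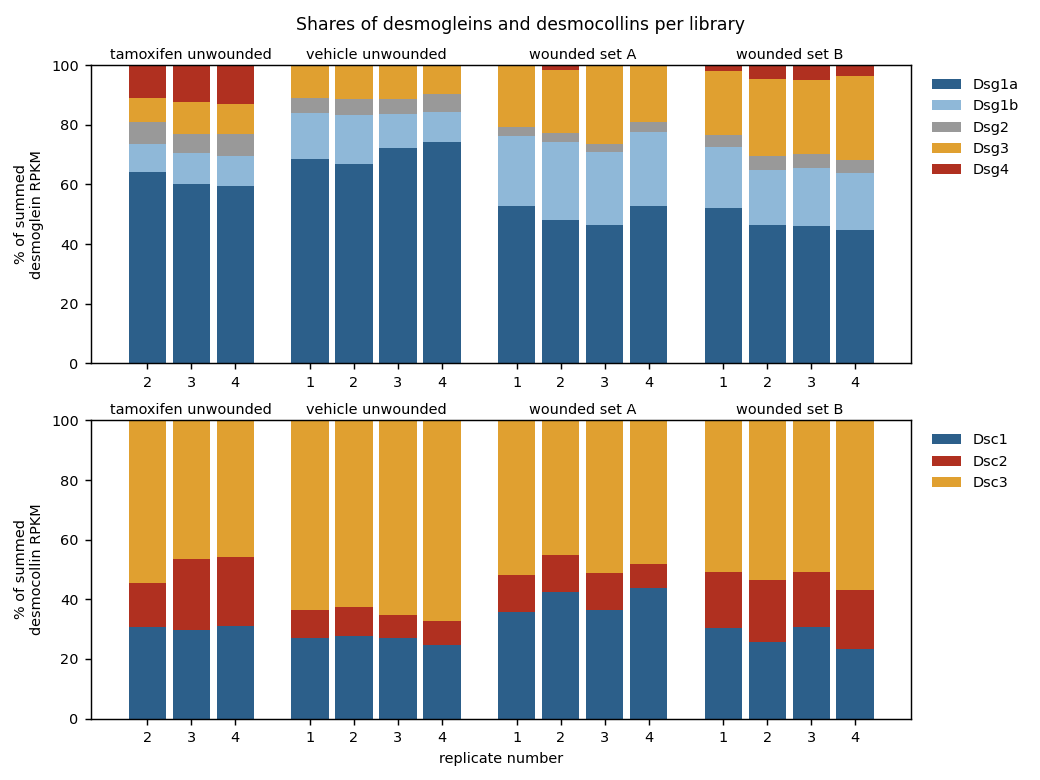
Share of each desmoglein in summed desmoglein RPKM (upper panel) and of each desmocollin in summed desmocollin RPKM (lower panel), with 1 bar per library by group and replicate number. Dsg1a falls from 61.3% and 70.4% in the unwounded groups to 50.1% and 47.3% in the wounded sets, and Dsg4 is visible in unwounded tamoxifen skin (12.1%) and set B (3.82%).

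Whether the wound difference depended on treatment was tested as an interaction. With the gene tables' names 2 of the 10 genes had a lower wound difference with tamoxifen and none a higher one, beside 20.2% and 19.7% of all genes (40.0% in either direction). These were Dsg4 (-2.09 ± 0.49, adjusted p = 0.00499) and Dsc1 (-0.84 ± 0.21, adjusted p = 0.00675). Dsg4 was near the floor in unwounded vehicle skin (0.0263 to 0.0576 RPKM), so it had little room to fall there. Dsc1 stood at 24.5 ± 2.06 RPKM in unwounded vehicle skin and at 44.2 ± 2.56, 45.2 ± 12.3 and 44.1 ± 2.14 RPKM in the other groups, so that it was low in a single group. Dsc2 (-0.52) passed without unwounded tamoxifen replicate 2 (-0.76, adjusted p = 0.00716), Dsc3 (0.39) without set A replicate 4 (0.48, adjusted p = 0.0196), and Dsg3 (0.40) without unwounded tamoxifen replicate 3 (adjusted p = 0.0380) or set B replicate 1 (0.0458). With the names of the records 9 genes had a lower wound difference with tamoxifen and none a higher one, beside 34.6% and 33.9% of all genes (68.5% either way), from -0.70 ± 0.17 for Dsg1a to -7.44 ± 0.49 for Dsg4, and Dsg1b (-0.24, adjusted p = 0.272) did not pass. Scaled to the epithelial genes the records' interaction moved the median of all genes to 0.93 and the share of higher calls from 49.5% to 90.8%. Of the 10 genes 1 was higher and 3 were lower, beside 11353 of all 13922 genes called. Dsg1b turned to a called 0.75 (adjusted p = 0.000671), and Dsg4 (-6.85), Dsc2 (-2.13) and Dsg2 (-0.77) stayed lower. The gene tables' interaction had 1 gene higher and 2 lower on this scale, beside 2515 of all genes called.

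The profiles of the 10 genes over the 15 libraries were compared with those of all 13922 genes tested, by the root mean square difference of log2(RPKM + 0.5) after centring each gene on its mean. This is a description, since all genes share libraries and scaling. Among the 10, Jup and Dsp were nearest to each other (0.14), followed by Dsc3 to Dsp (0.16), Dsg1a to Dsc3 (0.24), Dsc1 to Jup (0.25), Dsg2 to Dsg1a (0.29) and Dsg1b to Dsg3 (0.31). Dsc2 (0.53 to Jup) and Dsg4 (1.23 to Dsc2) had no near neighbour among the 10.

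Of all other genes, those nearest to Dsp were Cdh1 (0.08), which encodes E-cadherin of the adherens junction, Adgrl2 (0.08) and Pard6g (0.09), and those nearest to Jup were Hip1r (0.10), Ezr (0.11) and 5730559C18Rik (0.11). Dsg1a was nearest to Ifnlr1 (0.09), Nrbp2 (0.09) and Capns2 (0.10), Dsg1b to C330022C24Rik (0.15), Nbeal2 (0.15) and Eno1 (0.16), and Dsg2 to Afdn (0.14), Ddr1 (0.14) and Cldn1 (0.14). Dsg3 was nearest to Mapk6 (0.19), Ctsl (0.20) and Clcf1 (0.20). Dsc3 was nearest to Btbd11, Fam129b and Gfod1 (0.12 each).

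The genes nearest to Dsc1 were Mcm5 (0.12), Mcm10 (0.13) and Fanca (0.15). Mcm5, a subunit of the replicative helicase, had a mean of 10.1 RPKM in unwounded vehicle skin and 17.5 to 18.2 RPKM in the other 3 groups, so that it shared its lowest group with Dsc1. The genes nearest to Dsc2 were Sdc1 (0.21), Tgfa (0.21) and Bnc1 (0.22). Tgfa, which encodes a ligand of the epidermal growth factor receptor, had means of 22.8, 5.05, 8.19 and 19.5 RPKM in unwounded tamoxifen, unwounded vehicle, set A and set B, beside 30.1, 7.96, 12.3 and 31.2 RPKM for Dsc2. Dsg4 was nearest to Otop2 (0.16), with means of 21.5, 0.165, 0.588 and 5.85 RPKM in the same order, and then to Capn8 (0.26) and Tagln3 (0.29).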

How the data were processed

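Whole-skin RNA was sequenced in 15 libraries. Per the file headers, the authors used TopHat on mm10 and Partek to obtain RPKM for each gene. The submitters' processing notes name bcl2fastq, Partek and TopHat2 2.1.0. How reads were counted, by which annotation and with what strand setting is not given. A sample sheet that the authors deposited holds the count of alignments per library. The deposited ANOVA table and the sheet of SOX2 targets were not used here.

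Since RPKM is no count, no count test was run. The model was limma 3.58.1 (R 4.3.3, trend, two-sided) on log2(RPKM + 0.5) for the 13922 genes that reached an RPKM of 1 in 3 or more libraries. It held all 15 libraries in 4 groups, with 11 residual and 2.57 prior degrees of freedom. Adjusted p-values are Benjamini-Hochberg values from limma over these genes, and the threshold was 0.05. Differences carry limma standard errors and RPKM means carry SDs. Approximate read numbers were derived from alignments and GENCODE M21 exon lengths, and they and the floor of 3 reads cover counting error only. The model was tested on simulated data. Tables were handled in Python 3.11.15 with pandas 2.3.3.

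The labels do not say whether each library is a separate mouse, so the p-values may measure technical spread. The 10 genes, the gene lists and the rules were chosen with earlier results of these data known. The rule for named genes took the 10 genes, the 3 nearest profiles of each, every listed other desmosome gene and factor, and up to 3 called genes with the largest differences from each other list. Replicate numbers were checked for pairing by correlating, across genes, deviations from group means. Sets A and B had an r over 0.1 in 4 of 4 numbers (r 0.123 to 0.43), and in the other 5 pairs of groups at least 1 r did not exceed 0.1. Libraries of unlike numbers were not compared, so these values do not establish a pairing. Alternatives were other pseudocounts, filters, scalings and models, a replicate block, and leaving out each library in turn.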

Additional observations from a re-analysis of the deposited data

Results flagged for a closer look

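Of 30 groups of 4 libraries checked for the 10 genes, 3 held a library whose gap to the rest was over the critical value of Dixon's test, where chance gives about 1 in 20. These were Dsg4 in set A replicate 2 (1.36 RPKM), Dsc3 in unwounded vehicle replicate 1 (54.5 RPKM) and Jup in set B replicate 4 (320.0 RPKM).

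The wound difference differed by treatment, by limma's test of the interaction, for Dsc1 (-0.84) and Dsg4 (-2.09) with the gene tables' names. Dsg4 had little room to fall in vehicle skin, since it was near the floor there before wounding. With the records' names it differed for Dsc1 (-0.84), Dsc2 (-3.13), Dsc3 (-0.89), Dsg1a (-0.70), Dsg2 (-1.70), Dsg3 (-0.996), Dsg4 (-7.44), Dsp (-1.23) and Jup (-1.22). The records' interaction is minus the sum of the treatment differences in unwounded skin and of set B minus set A, so it restates those differences under the other names.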

How the results depend on the processing

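Over 90 values (10 genes in 9 comparisons), the alternatives other than leaving out a library kept 582 of the values called, ended the call of 14 and reversed 6. Of values not called, 281 stayed so, 26 passed and 21 reversed. Reversals concentrated in the scaling to epithelial genes. There tamoxifen minus vehicle in unwounded skin gave Dsg1a -0.27, Dsg1b -0.45, Dsg3 -0.23 and Dsc3 -0.30, and set B minus set A gave Dsg1a -0.0505, Dsg1b -0.30 and Dsc1 -0.47. Set B minus unwounded tamoxifen gave Dsc1 0.12, set B minus unwounded vehicle Dsg1a -0.41 and Dsg2 -0.0945, and set A minus unwounded tamoxifen Dsc1 0.59, Dsc3 0.22, Jup 0.24 and Dsp 0.0524. The records' interaction gave Dsg1a 0.32, Dsg1b 0.75, Dsc1 0.17 and Dsc3 0.13. With this scaling 5 in place of 8 of the 10 genes were called between the sets. In the records' interaction 4 in place of 9 were called, beside 11353 in place of 9538 of all genes. Genes called overall went from 4328 to 9630 between the sets, from 5541 to 3132 for set A against unwounded vehicle, from 7633 to 4467 for set B against unwounded tamoxifen, from 7854 to 5092 for the mean over both and from 5565 to 2515 for the gene tables' interaction. The cause was not tested.

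Median-of-ratios scaling reversed Dsc1 alone, to -0.00308 between the sets, 0.0156 for set B and 0.0187 for set A against unwounded tamoxifen. Library weights, whose estimation stopped before reaching its convergence tolerance, reversed Dsp for set A against unwounded vehicle (-0.0683) and in the mean over both (-0.0150). They also reversed Dsc2 for set B against unwounded tamoxifen (-0.11) and called 7041 genes between the sets. In the gene tables' interaction they called 4 of the 10 genes in place of 2, beside 6985 of all 13922 genes. Summing Dsg1a and Dsg1b moved the share by construction to 71.3% and 83.8% in unwounded tamoxifen and vehicle skin and to 74.7% and 66.7% in sets A and B.

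With the replicate block over all groups 4 of the 10 genes passed in the gene tables' interaction, beside 5519 of all 13922 genes. Dsc1 reversed for set B (0.0382) and set A (0.0355) against unwounded tamoxifen, the latter to 0.11 with the block and only those groups. The block changed no call of the 10 genes between sets A and B. Elsewhere it let Dsc3 pass for set B against unwounded tamoxifen (0.31, adjusted p = 0.0359) and Dsg2 for set B against unwounded vehicle (adjusted p = 0.0152), and the block with only the groups compared ended the calls of Dsc3 (adjusted p = 0.152) and Dsp (adjusted p = 0.0700) for set A against unwounded tamoxifen.

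Leaving out 1 library kept 858 calls, ended 12 and reversed 23 values, none of them called. Of the other values not called, 433 stayed so and 24 passed. Each library was left out for every comparison, also for pairs of groups that it was not in. There the difference could not change and only the p-value could move, so part of the kept calls had a fixed difference. The ranges over the 15 fits of the values that reversed were -0.00724 to 0.19 for Dsg1b in unwounded skin, -0.11 to 0.15 for Dsc1 between the sets, and -0.0524 to 0.13 for Dsp in set A against unwounded vehicle. Against unwounded tamoxifen they were -0.0363 to 0.0432 for Dsc1 and -0.15 to 0.27 for Dsc2 in set B and -0.15 to 0.11 for Dsc1 in set A. For set B against unwounded vehicle Dsg1a ranged from -0.0511 to 0.0663. In the gene tables' interaction the ranges were -0.0257 to 0.18 for Dsg1b, -0.24 to 0.0145 for Jup and -0.0540 to 0.14 for Dsp. Depth limited little, since 9 of the 10 genes exceeded 1 RPKM in every library and Dsg4 alone came near the floor of 3 reads.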
